A study of Mus musculus with 14 samples.

Results

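The 8 genes Rax, Dio2, Crym, Gpr50, Vim, Nes, Foxj1 and Ccdc153 mark the cells that line the third ventricle, and they were followed in a translating ribosome affinity purification (TRAP) experiment on neurons that express proopiomelanocortin (POMC). They were chosen by gene name as known markers, 6 of tanycytes and 2 of ependymal cells, and not by their values. Earlier results of these data were known when the choice was made. Each name matched 1 of the 44672 genes in the deposited table.

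RNA bound to tagged ribosomes (IP) and RNA of the whole dissected tissue (input) were sequenced from 7 pools of mouse hypothalamic tissue, which gave 14 libraries. POMC Lepr+ neurons, which carry or once carried the leptin receptor, were profiled in 4 pools of 6 mice (3 males and 3 females) of the genotype POMCDre+/- LeprCre+/- ROSA26lSlrSrEGFPL10a+/-. POMC Glp1r+ neurons, which carry or once carried the receptor for glucagon-like peptide 1, were profiled in 3 pools of 12 mice (6 males and 6 females) of the genotype POMCDre+/- Glp1rCre+/- ROSA26lSlrSrEGFPL10a+/-. All mice were random-fed and 12 weeks old, and all carried POMC-Dre and the EGFP-L10a allele, with no line lacking a recombinase among the samples. The tagged ribosomal protein is made only after both Dre and Cre have each removed a stop cassette, so it marks cells by their history of both promoters, including any activity in development. Pool size differed with genotype, and the 2 cannot be told apart. The labels name the arcuate nucleus as the source, whereas the study's methods describe whole hypothalami, so the tissue in the input is not settled.

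Tanycytes are elongated cells of the floor and lower walls of the third ventricle, with a process that reaches into the arcuate nucleus and median eminence, next to the POMC neurons. They move hormones and nutrients between blood, cerebrospinal fluid and neurons, and convert thyroid hormone for the hypothalamus. Ependymal cells line the upper ventricle walls and beat motile cilia that move the cerebrospinal fluid. Neither cell type is a POMC neuron, so a marker of these cells found in a POMC neuron pulldown is read here as a ratio of IP to input RNA and not as a level in neurons.

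The table gives, per gene, a mean IP/input ratio over the 7 pools and a log2 fold change between the lines (positive where POMC Glp1r+ neurons were higher) with its standard error (SE). From these, a mean ratio was solved for both lines, weighted by their 4 and 3 pools. A ratio of 1 means equal IP and input values. How the ratios were scaled for the depth of the libraries is not given in the sources used here, so each ratio is given with its percentile among the 18395 protein-coding genes whose ratio was not exactly 1 in both lines. Those genes had a median ratio of 1.06 in POMC Lepr+ neurons against 1.17 in POMC Glp1r+ neurons. Values of single pools and read totals were not used here, and how deeply a gene was read is unknown. The intervals below are 95% model intervals from the standard error, not a measured spread between pools. A ratio compares IP with input, so fewer cells of a type and less RNA per cell cannot be told apart.

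The pulldown carried its labelled neurons. Pomc, the gene whose promoter drives Dre, had a ratio of 239 in POMC Lepr+ neurons against 81.6 in POMC Glp1r+ neurons, and the lowest ratio among 5 POMC neuron markers was 2.92. All 12 astrocyte markers and all 11 oligodendrocyte markers lay below 1 in both lines, with medians of 0.453 and 0.573 in POMC Lepr+ and 0.332 and 0.328 in POMC Glp1r+ neurons. The 12 pan-neuronal markers had medians of 1.27 and 1.52, but 4 of them lay below 1 in POMC Lepr+ neurons and 2 in both lines.

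Of the 8 markers, 6 (Dio2, Crym, Gpr50, Nes, Foxj1 and Ccdc153) had a mean ratio below 1 in both lines, which held for 24.2% of the protein-coding genes. Without rescaling, only Dio2 and Nes had model intervals wholly below 1 in both lines. Rax lay on both sides of 1, and Vim lay above 1 in both lines. The median ratio of the 8 markers was 0.530 in POMC Lepr+ neurons against 0.505 in POMC Glp1r+ neurons. None of the 8 passed an adjusted p of 0.05 between the lines in the Wald test of DESeq2 as deposited (Benjamini-Hochberg over 43199 genes), against 2.11% of all tested genes. Those tested genes include 13002 with a ratio of exactly 1 in both lines, and all calls fell among the other 30197. Shares of all tested genes given here are over the full 43199. At an unadjusted p of 0.05, 2 of the 8 passed, Vim and Gpr50, against 10.2% of all tested genes and 15.0% of the protein-coding genes described above.

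**Figure D1:**
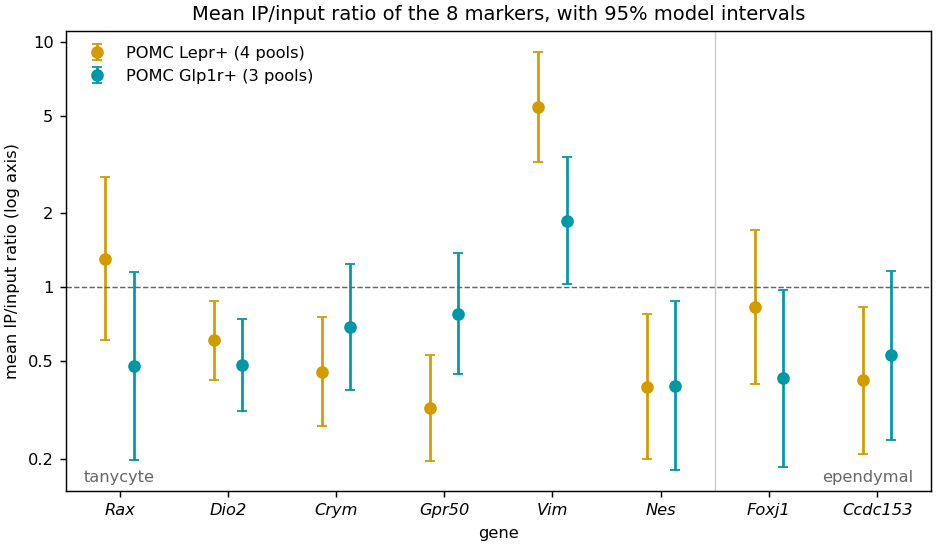
Mean IP/input ratio (log axis) of each of the 8 markers in POMC Lepr+ and POMC Glp1r+ neurons, with bars for the 95% model interval. Vim stands above 1 in both lines (5.42 and 1.87), while 6 markers stand below 1 in both.

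Vim encodes vimentin, an intermediate filament protein of tanycytes that is also made by astrocytes, endothelial cells, fibroblasts and microglia. Vim (ENSMUSG00000026728; GRCm38 chr2:13573927-13582826, forward strand) had a mean ratio of 5.42 in POMC Lepr+ neurons (interval 3.24 to 9.09) and 1.87 in POMC Glp1r+ neurons (1.03 to 3.40). It was the only one of the 8 markers whose interval lay wholly above 1, which it did in both lines, and it stood at percentiles 98.6 and 89.0. In the Glp1r line this depended on the scaling, since the interval included 1 when divided by the median of protein-coding genes (0.884 to 2.91) or of pan-neuronal markers (0.680 to 2.24). Its ratio was 2.90-fold higher in POMC Lepr+ neurons (interval 1.32 to 6.38), a log2 fold change of -1.53 (SE 0.58). The adjusted p of the DESeq2 Wald test was 0.183 (0.00820 before adjustment), so the difference did not pass the threshold. Other cells also make Vim, and values of their markers are given for the Lepr and Glp1r lines in turn. Over 16 endothelial and mural markers the medians were 0.892 and 0.757, with maxima of 3.65 and 4.34. Over 4 fibroblast markers they were 0.891 and 0.464, with maxima of 1.00 and 1.265. Over 10 microglia markers they were 0.598 and 0.339, with maxima of 1.04 and 1.93. The 6 tanycyte markers, Vim among them, also had medians below 1, at 0.530 and 0.586. Microglia had 1 called marker of 10, C1qc, at 1.04 and 0.298 (adjusted p = 0.00386), also higher in POMC Lepr+ neurons. Of all tested genes, 0.836% were called in that direction. The fold change was negative, as for Vim, for all 12 astrocyte, all 11 oligodendrocyte and 9 of 10 microglia markers. It was negative for 9 of 16 endothelial and mural, 2 of 4 fibroblast and 4 of 12 pan-neuronal markers. Among the 18395 protein-coding genes, 8169 had a negative one. The part of any of these cell types in the Vim ratio was not tested.

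Nes encodes nestin, the filament protein of neural stem cells and tanycytes. Nes (ENSMUSG00000004891; chr3:87971078-87980451, forward strand) had a ratio of 0.394 in POMC Lepr+ (0.199 to 0.781) and 0.398 in POMC Glp1r+ neurons (0.180 to 0.876), at percentiles 3.91 and 4.90. It was the lowest of the 8 in POMC Glp1r+ neurons and the closest between the lines, with a log2 fold change of 0.01 (SE 0.77; interval -1.50 to 1.52). As a fold, that interval runs from 0.355 to 2.87, so differences within that range were not excluded. The 2 filament genes thus lay on opposite sides of 1 in the same libraries. Among 8 other intermediate filament genes, only Des, the desmin gene of muscle and mural cells, was called. Its ratio was 3.57 in POMC Lepr+ neurons against 0.164 in POMC Glp1r+ neurons (adjusted p = 0.0102). Of all tested genes, 0.836% were called higher in POMC Lepr+ neurons. The standard error of Des implies a coefficient of variation between pools of 104%, under the model described below. Gfap, the astrocyte filament gene, gave 0.677 and 0.3997 (adjusted p = 0.183).

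Rax encodes a homeobox transcription factor of the developing hypothalamus and retina that stays on in adult tanycytes. Rax (ENSMUSG00000024518) had a ratio of 1.31 in POMC Lepr+ (0.611 to 2.81) and 0.478 in POMC Glp1r+ neurons (0.198 to 1.16). It was the only one of the 8 to lie on both sides of 1, at percentiles 68.1 and 7.32, and both intervals included 1, although in the Glp1r line the interval lay below 1 under either scaling (upper bounds 0.990 and 0.762). The log2 fold change was -1.46 (SE 0.86; interval -3.14 to 0.23; adjusted p = 0.630). Rax overlaps the antisense gene Raxos1 by 2250 bases. The library kit, as the labels describe it, does not mark strand, so reads from the overlap cannot be assigned to either gene. Raxos1 gave 1.37 in POMC Lepr+ neurons against 3.33 in POMC Glp1r+ neurons, a fold change of the opposite sign (1.28, SE 1.09).

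Dio2 and Crym handle thyroid hormone. Dio2 encodes the deiodinase that converts thyroxine into active triiodothyronine and is made by tanycytes and astrocytes. Dio2 (ENSMUSG00000007682; chr12:90724552-90738438, reverse strand) had a ratio of 0.608 in POMC Lepr+ (0.418 to 0.883) and 0.481 in POMC Glp1r+ neurons (0.312 to 0.742), at percentiles 12.6 and 7.44, and both intervals lay below 1. Its log2 fold change was -0.34 (SE 0.42; adjusted p = 1), the smallest SE among the 8. Dio2 shares 238 bases at its start with the antisense lncRNA Gm26512. Crym encodes mu-crystallin, which binds thyroid hormone in the cell and is also made by some neurons. Crym (ENSMUSG00000030905; chr7:120186380-120202111, reverse strand) had a ratio of 0.453 in POMC Lepr+ (0.272 to 0.754) and 0.690 in POMC Glp1r+ neurons (0.383 to 1.24), at percentiles 5.74 and 15.4. The log2 fold change was 0.61 (SE 0.57; interval -0.51 to 1.73), of the opposite sign to that of Dio2, and neither passed the test.

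A list of 12 other genes of thyroid hormone transport and response shares members with the tanycyte markers below. Of the 12, 11 had a positive fold change, against 55.6% of the protein-coding genes. Their median log2 fold change was 0.71 against 0.07 over the protein-coding genes. None was called by DESeq2, against 2.11% of all tested genes. At an unadjusted p of 0.05, 2 of the 12 passed, against 10.2% of all tested genes and 15.0% of the protein-coding genes. These were Trhde, the ectoenzyme that cleaves thyrotropin-releasing hormone, with ratios of 0.376 and 1.14 (adjusted p = 0.0630), and Trhr, the receptor of that hormone, with 0.550 and 0.899 (adjusted p = 0.355).

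Gpr50 encodes an orphan receptor related to the melatonin receptors, found in tanycytes and in neurons of the dorsomedial hypothalamus. Gpr50 (ENSMUSG00000056380; chrX:71663667-71669257, forward strand) had a ratio of 0.323 in POMC Lepr+ (0.196 to 0.530) and 0.782 in POMC Glp1r+ neurons (0.442 to 1.39). It had the lowest ratio of the 8 in POMC Lepr+ neurons, at percentile 2.41, against percentile 20.6 in POMC Glp1r+ neurons. Its ratio was 2.42-fold higher in POMC Glp1r+ neurons (log2 fold change 1.28, SE 0.56). The adjusted p of the DESeq2 Wald test was 0.317 (0.0219 before adjustment), so Gpr50 did not pass either. With a t distribution of 5 degrees of freedom its unadjusted value was 0.0704. It was 1 of 4 markers with a positive fold change, beside Crym, Ccdc153 and Nes (Nes turned negative, -0.057, after centring on the protein-coding median), and the other 4 had a negative one. The related receptor gene Mtnr1a had ratios of 0.502 and 1.01 (adjusted p = 0.959). Mtnr1b had a ratio of exactly 1 in both lines, as did 13002 genes in all. Whether any read of Mtnr1b was present cannot be told from that value.

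**Figure D2:**
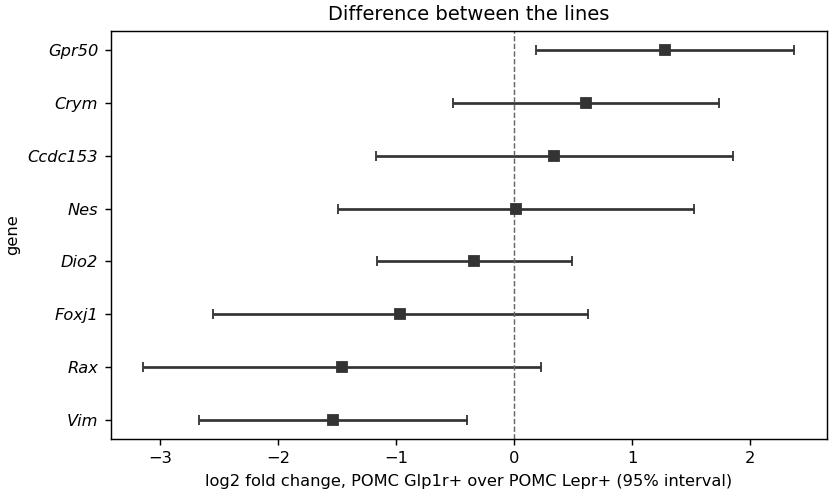
Log2 fold change of the IP/input ratio, POMC Glp1r+ over POMC Lepr+ neurons, for each of the 8 markers, with the 95% interval (1.96 SE either side). The intervals of Vim and Gpr50 exclude 0 in opposite directions and the other 6 include 0, under the normal approximation.

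Foxj1 and Ccdc153 belong to ciliated ependymal cells. Foxj1 encodes the transcription factor that turns on the genes of motile cilia, and Ccdc153 encodes a coiled-coil protein of cilia used as an ependymal marker. Foxj1 (ENSMUSG00000034227; chr11:116330704-116335399, reverse strand) had a ratio of 0.830 in POMC Lepr+ (0.404 to 1.70) and 0.426 in POMC Glp1r+ neurons (0.185 to 0.978), at percentiles 27.9 and 5.77. Its log2 fold change was -0.96 (SE 0.81; adjusted p = 0.942). Ccdc153 (ENSMUSG00000070306; chr9:44240676-44247306, forward strand) had a ratio of 0.418 in POMC Lepr+ (0.210 to 0.829) and 0.528 in POMC Glp1r+ neurons (0.239 to 1.17), at percentiles 4.68 and 8.96. Its log2 fold change was 0.34 (SE 0.77; adjusted p = 1). The pair lay below 1 in both lines, and the sign of the difference between lines was opposite.

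Factors of the RFX family act with FOXJ1 on ciliary genes, and a short core of their binding motif, GTTGCC, was searched on both strands of the RefSeq promoters (GRCm38.p6; from 250 bases before to 50 after the start). Ccdc153 was the only one of the 5 markers with a promoter in the table to hold it, and it is shown for that reason with the match in capitals, at position -152 from the start, with 0 at the start (chr9:44240427-44240726, forward strand). Windows of the match in Ccno and Tekt1, the 2 cilia genes with the smallest p, follow for comparison.
Ccdc153 promoter: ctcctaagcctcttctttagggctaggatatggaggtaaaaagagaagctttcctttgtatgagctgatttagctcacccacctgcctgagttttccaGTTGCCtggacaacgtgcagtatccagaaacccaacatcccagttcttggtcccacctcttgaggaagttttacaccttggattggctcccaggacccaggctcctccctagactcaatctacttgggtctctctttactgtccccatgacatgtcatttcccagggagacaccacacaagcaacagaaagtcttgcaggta
Ccno window: ccgggctgcgGTTGCCacggtgacga
Tekt1 window: cgtccgtccgGTTGCCatagagaccg
The same 6 letters stood in 12.5% of all 32851 promoters, and in at least 1 promoter of 14.1% of the 27025 genes with one. They stood in 17 of the 32 cilia and ependymal genes with a promoter (53.1%) and in none of 16 tanycyte genes. The forkhead core TGTTTAC, searched in the same way, stood in none of the 5 markers and in 3.65% of all promoters. By gene, it stood in at least 1 promoter of 4.05% of the 27025 genes with one. It stood in 2 of 16 tanycyte genes (12.5%) and in 2 of 32 cilia and ependymal genes (6.25%). A match of letters is a description and not a binding site.

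The other 34 genes of motile cilia and ependymal cells did not stay on one side of 1. Their ratios ran from 0.122 to 3.66 in POMC Lepr+ and from 0.119 to 4.40 in POMC Glp1r+ neurons. Of the 34, 15 lay below 1 in both lines (44.1%), as Foxj1 and Ccdc153 did, against 24.2% of the protein-coding genes. Ccno, the cyclin O gene of multiciliated cells, was the only one called (0.342 and 4.40; adjusted p = 0.0241), and Tekt1, a tektin gene of the axoneme, came next (0.391 and 1.39; adjusted p = 0.0530). With Ccno as the only call, 1 of the 33 genes with a p-value was called higher in POMC Glp1r+ neurons, against 1.28% of all tested genes, and none was called higher in POMC Lepr+ neurons, against 0.836%. At an unadjusted p of 0.05, 11 of the 33 passed, 5 of them with the higher ratio in the Glp1r line and 6 in the Lepr line, against 10.2% of all tested genes and 15.0% of the protein-coding genes.

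The 13 other tanycyte markers lay nearer 1 than the 6 tanycyte markers described above, with medians of 1.10 and 1.06 against 0.530 and 0.586, a difference given without a test. Of the 13, 3 lay below 1 in both lines (23.1%), near the 24.2% of the protein-coding genes. Adm, the gene of the vasodilator peptide adrenomedullin, was called higher in POMC Lepr+ neurons (1.68 and 0.230; adjusted p = 0.00268), against 0.836% of all tested genes. Col25a1, a membrane collagen gene, was called higher in POMC Glp1r+ neurons (0.503 and 1.17; adjusted p = 0.0142), against 1.28%. No other gene of the 13 was called. At an unadjusted p of 0.05, 4 of the 13 were higher in the Lepr line and 2 in the Glp1r line. The shares at that threshold were 10.2% of all tested genes and 15.0% of the protein-coding genes. Cd59a, a complement regulator gene, had the pair of line ratios nearest that of Vim among 140 genes of the marker lists, 3.44 and 1.53, at a distance of 0.72 in log2 units over the 2 lines. Rsph1, a radial spoke gene of motile cilia, came next with 3.24 and 1.78. The nearest gene to Nes was Ak7, an adenylate kinase of cilia (0.395 and 0.411), and that to Dio2 was the pericyte receptor gene Pdgfrb (0.609 and 0.469). With only 2 line means behind each pair, such likeness is a description.

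**Figure D3:**
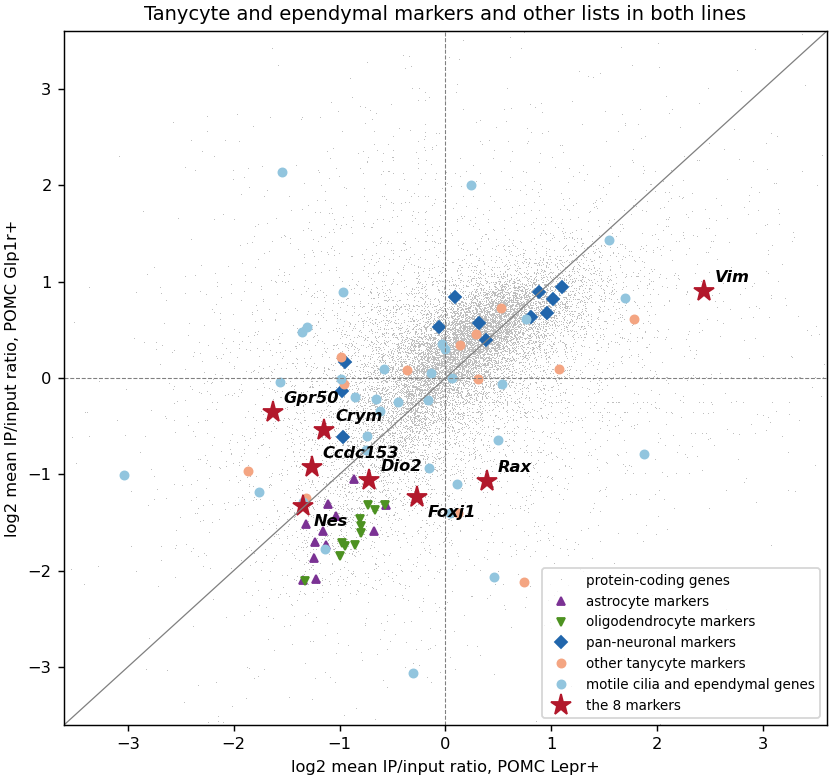
Log2 mean IP/input ratio in POMC Lepr+ neurons (x axis) against POMC Glp1r+ neurons (y axis) for the 8 markers (stars), 5 other marker lists and protein-coding genes (grey dots), with genes beyond the axes not drawn. Astrocyte and oligodendrocyte markers gather at lower left, Vim stands furthest right of the 8 markers, and Vim, Rax, Foxj1 and Dio2 lie below the diagonal of equal ratios.

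The 8 markers were set beside the ranges of the astrocyte and pan-neuronal markers. In POMC Lepr+ neurons, Dio2, Crym and Ccdc153 lay within the range of the astrocyte markers, 2 of the 8 lay below it and 3 above it. In POMC Glp1r+ neurons, Rax, Dio2, Nes and Foxj1 lay within that range and the other 4 lay above it. Against the pan-neuronal markers, 4 of the 8 lay below the range in the Lepr line and 5 in the Glp1r line. Rax, Dio2 and Foxj1 lay within the pan-neuronal range in the Lepr line, and Crym, Gpr50 and Vim in the Glp1r line. Vim was above that range in POMC Lepr+ neurons. The astrocyte and pan-neuronal ranges overlapped in the Lepr line, with Dio2 inside both. Model intervals lay wholly below 1 for 5 of the 8 in POMC Lepr+ and for 3 in POMC Glp1r+ neurons. Divided by the median ratio of protein-coding genes or of pan-neuronal markers, the count stayed at 5 in the Lepr line and became 5 or 7 in the Glp1r line.

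The standard errors set the precision. If the pools varied as in the negative binomial model of DESeq2, the standard error of each gene implies a coefficient of variation between pools common to both lines. It was 38.0% for Dio2, 50.4% for Gpr50, 51.9% for Crym, 52.6% for Vim, 69.6% for Nes, 69.9% for Ccdc153, 73.4% for Foxj1 and 77.9% for Rax. All 8 lay above the protein-coding median of 35.8%. Their median of 61.1% compares with 24.1% for the pan-neuronal, 39.2% for the astrocyte and 66.9% for the microglia markers. These are values of the fitted model and not a spread measured over pools.

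**Figure D4:**
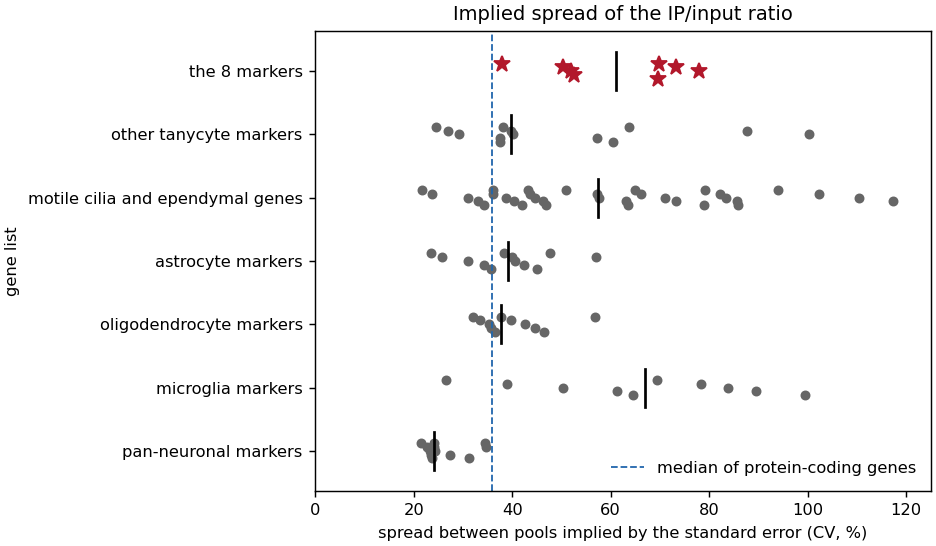
Coefficient of variation between pools implied by the standard error of each of the 8 markers, beside other lists and the protein-coding median of 35.8%. All 8 markers lie above that median, from Dio2 at 38.0% to Rax at 77.9%.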

How the data were processed

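Ribosome-bound (IP) and input RNA of 7 pools was sequenced (Nextera XT libraries, paired reads). According to the methods, the authors ran nf-core/rnaseq with STAR on GRCm38.p6, took gene counts from Salmon (0.14.1 in the submitters' processing notes) and divided IP by input in every pool before DESeq2 (1.26.0 in those notes). The sources disagree on read length and Ensembl release. The deposited file gives the outcome of that comparison without single libraries, and it has 0 columns of other samples. Its first column is a score: the authors' average of IP/input ratios over pools, which the values show to be multiplied by 1000 and rounded. The log2 fold change and its standard error, and the p-values (Wald test, Benjamini-Hochberg), are deposited values of the authors' DESeq2 analysis and are described as such. No new test between libraries was possible.

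Line means were solved from the mean and the fold change, and the implied dispersion from the standard error with size factors of 1. Both steps were tested on simulated data. The largest difference between the recomputed and the deposited adjusted p was 8.48e-15. Coordinates are from GENCODE M21. Promoters are from RefSeq (GRCm38.p6), which held 5 of the 8 markers. Calculations ran in Python 3.11.15 (scipy 1.17.1, pandas 2.3.3, numpy 2.4.6).

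All 8 markers are named. Of each other list, the genes named are those called at an adjusted p under 0.05 (at most 4) or, where fewer than 2 were called, the 2 with the smallest p, beside the nearest genes of the markers in the plane of both line ratios. Pomc, Raxos1 and Gm26512 stand outside this rule. Results for some genes that the rule names are left out. The markers and the 14 other lists were chosen with earlier results of these data known, so their counts are descriptions. Alternatives were the genes over which p was adjusted, centring, a t distribution, other thresholds and 2 scalings of the ratios.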

Additional observations from a re-analysis of the deposited data

How the results depend on the processing

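No marker passed an adjusted p of 0.05 with p adjusted over protein-coding genes, after centring on the protein-coding median, or with a t distribution of 5 degrees of freedom in place of the normal. The smallest adjusted p over the 8 was 0.183 (Vim) as deposited, 0.123 and 0.148 (Vim) with the first 2 of these, and 1 with the third. At an unadjusted p of 0.05, 2 of the 8 passed (Vim and Gpr50) with the normal and 1 (Vim) with the t distribution, a combination chosen after seeing the data, against 10.2% and 4.92% of all tested genes. Centring moved the Nes fold change from 0.01 to -0.057 (log2), a change of sign far inside its SE of 0.77. Over all genes, 912 were called as deposited, 904 with centring and 0 with the t distribution, so calls rest on the normal approximation. The first alternative could call protein-coding genes only, so its count is not comparable with the 912. It called 692, of which 424 were higher in POMC Glp1r+ neurons. As deposited, fewer protein-coding genes were called, 347 higher in POMC Glp1r+ neurons and 213 higher in POMC Lepr+ neurons. Of the 904, 472 were higher in POMC Glp1r+ neurons, against 551 of the 912. The count of 6 markers below 1 in both lines held when ratios were divided by the median of protein-coding genes or of pan-neuronal markers. With these scalings, also chosen after seeing the data for the intervals, the number wholly below 1 in the Glp1r line moved from 3 to 5 and 7, and that wholly above 1 from 1 (Vim) to 0. No paired analysis was possible because the file holds no value of a single library, and leaving out a pool could not be run for the same reason. Depth per library is unknown, so which of these ratios rest on few reads cannot be told.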

Other observations

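Some lists of other cell types near the ventricle split within themselves. Of 8 choroid plexus markers, 4 had a positive and 4 a negative fold change and none was called by DESeq2, with 4 of the 7 that have a p-value at an unadjusted p of 0.05, against 10.2% of all tested genes and 15.0% of protein-coding genes. The homeobox gene Otx2 had a ratio of 0.214 in POMC Lepr+ neurons against 0.884 in the other line (adjusted p = 0.213), and the bicarbonate transporter gene Slc4a5 had 0.145 against 0.787 (adjusted p = 0.243). The 16 endothelial and mural markers held no call (3 of the 14 with a p-value at an unadjusted p of 0.05, against the same shares), and their 2 smallest p were of opposite direction. The smooth muscle actin gene Acta2 had 0.444 in POMC Lepr+ neurons against 2.75 (adjusted p = 0.133), and the transporter gene Slco1a4 had 1.36 against 0.327 (adjusted p = 0.135). None of the 7 pituitary markers with a p-value was called or passed an unadjusted p of 0.05.

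Rax and Flt1, the endothelial VEGF receptor gene, had the most similar line ratios to each other among the 140 genes compared with Rax (Flt1 at 1.36 and 0.455), a description over 2 line means.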
